A study of Homo sapiens with 12 samples.

Results

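Plasmax, a culture medium formulated after the metabolites of human plasma, was compared with high-glucose DMEM (HGDMEM) in HepG2 cells, an established human liver cancer line that is widely used as a hepatocyte model. The 3 Plasmax and 3 HGDMEM libraries were chosen by their labels alone, as 6 of the 12 libraries of the series, and all 10945 measured rows with a gene symbol were compared. The study concerns iron availability and hepatocyte cell fate, and its other 6 libraries came from low-glucose DMEM (LGDMEM) and EMEM. All cells were grown and plated in EMEM, were left for 24 h to attach, and then spent 96 h in the medium named, with fresh medium at 48 h. All 4 media carried 10% heat-inactivated fetal bovine serum, so each group here is HepG2 in Plasmax with serum or HepG2 in HGDMEM with serum. HepG2 is a single tumour-derived line, and nothing in the labels says that the 3 libraries of a medium came from separate cultures. The p-values therefore speak of library-to-library spread, part or all of which can be technical.

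DMEM was designed to support dense cultures and supplies glucose and many amino acids at levels unlike those in blood, whereas Plasmax also carries metabolites, trace elements and amino acids that DMEM lacks. The 2 media differ in many components at once, so that the effect of any one nutrient cannot be told apart here. Cells sense such differences through well described regulators. SREBP-2 raises cholesterol synthesis and uptake genes when sterols are scarce, ATF4 raises amino acid transport and synthesis genes when amino acids run short, and the MondoA and ChREBP factors raise genes such as TXNIP when glucose phosphates accumulate.

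The libraries came from 3′ mRNA sequencing, in which a read marks the 3′ end of a transcript. The 6 libraries held 4848180 to 6015796 deposited counts, of which 4696280 to 5840057 lay on rows with a symbol. Levels below are CPM, counts scaled to a common library total after TMM normalization, which compare a gene between libraries and not one gene with another. A gene is said to have changed, risen or fallen where edgeR's quasi-likelihood test gave a Benjamini-Hochberg adjusted p under 0.05. By that rule 2947 genes changed (26.9%), with 1404 higher in Plasmax (12.8%) and 1543 lower (14.1%). Counts in the gene lists are set beside these shares, which run over genes of all levels. Calls were more frequent among stronger genes, at 11.0% under 5 CPM and 50.7% from 300 to 1000 CPM. Of the 964 measured list members 461 were called, and the part of expression level in a list's count was not tested. Of all genes, 612 rose (5.59%) and 677 fell (6.19%) by at least 2-fold, and the median log2 fold change was 0.01. The values of the 2 media did not overlap for 42.6% of the genes. Each of the 6 libraries was also left out in turn, which lowered the count over all genes to between 2256 and 2434, and the range is given for a list where it bears on its count. The first principal component of the 12 libraries held 37.1% of the variance and placed Plasmax between 52.9 and 59.4 and HGDMEM between −26.7 and −21.9.

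The hepatocyte marker ALB, the albumin gene, was abundant in both media, at 4624, 4196 and 3957 CPM in Plasmax and 10049.6, 11338 and 11414 CPM in HGDMEM. Of 8 leukocyte markers 3 were measured and summed to 1966 to 2194 CPM in Plasmax and 2710 to 3159 CPM in HGDMEM. Nearly all of that sum was LYZ, the lysozyme gene, which fell (log2 fold change −0.45, adjusted p = 0.00846), and its call was lost without HGDMEM 3 (adjusted p = 0.0503). CD14 and CD68, which define monocytes and macrophages, had at most 7.45 CPM in any of the 6 libraries. The 1 of 8 endothelial and stromal markers measured, PDGFRB, had 1.86 to 2.65 CPM in Plasmax and 3.64 to 9.73 CPM in HGDMEM (log2 fold change −1.38, adjusted p = 0.0496, a call lost when any 1 of 5 libraries was left out, up to 0.269 without HGDMEM 3). Counts on the 13 genes of the mitochondrial genome took 12.3% to 14.1% of a Plasmax library and 10.3% to 11.9% of an HGDMEM library, and the part of that share in other results was not tested.

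**Figure D1:**
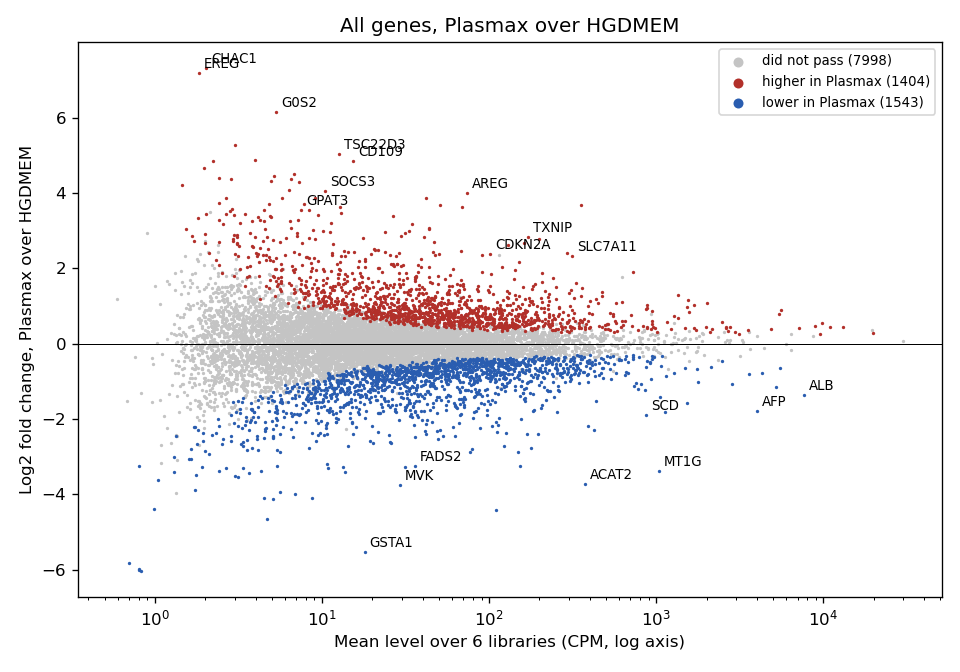
Log2 fold change, Plasmax over HGDMEM (vertical axis), against the mean level over the 6 libraries in CPM (log axis) for all 10945 genes. Each point is a gene, grey where it did not pass the test, red for the 1404 called higher and blue for the 1543 called lower in Plasmax, and the genes labelled are described in the text.

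Genes of sterol synthesis were lower in Plasmax at nearly every step of the pathway. Of 21 measured members 19 fell and 0 rose, against 14.1% of all genes that fell, and the median log2 fold change was −2.40. Leaving out 1 library gave 16 to 19 falls. ACAT2, a thiolase that starts the pathway, had 65.7, 43.8 and 47.96 CPM in Plasmax, against 716, 644 and 724 CPM in HGDMEM. All 3 Plasmax libraries were far below the lowest HGDMEM library (log2 fold change −3.73, SE 0.22, adjusted p = 4.26e-09). The mevalonate kinase MVK had 2.06, 7.01 and 2.89 CPM in Plasmax, against 58.7, 54.95 and 49.7 CPM in HGDMEM. Its groups did not overlap either (log2 fold change −3.75, SE 0.33, adjusted p = 2.07e-07). Further down the pathway MVD, IDI1, SQLE and MSMO1 fell, with log2 fold changes of −3.27, −2.86, −2.87 and −3.24. PMVK, the kinase between MVK and MVD, did not pass, at a log2 fold change of −0.15 (adjusted p = 0.784).

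Regulators and carriers around that pathway were lower in part, with 8 of 17 members down and 0 up. STARD4, a sterol carrier, had 1.24, 3.22 and 1.45 CPM in Plasmax, against 16.7, 24.00 and 18.4 CPM in HGDMEM, and the groups were apart (log2 fold change −3.29, SE 0.35, adjusted p = 2.41e-06). The absorption transporter NPC1L1 and TMEM97, a sterol-regulated membrane protein, fell, with log2 fold changes of −2.37 and −2.21. SREBF2, the gene of SREBP-2, had 26.2, 20.5 and 26.7 CPM in Plasmax, against 59.6, 47.5 and 52.9 CPM in HGDMEM, again without overlap (log2 fold change −1.13, adjusted p = 3.00e-04). Members without a call included its escort SCAP at a log2 fold change of 0.06 and the lysosomal sterol exporter NPC1 at a log2 fold change of 0.14.
SREBP-2 binds sterol regulatory elements, and the SREBF2 promoter is shown because it was the 1 promoter of 30 searched in these 2 lists that held the letters TCACNCCAC on either strand (SREBF2 alone of 14 in the uptake and regulation list and 0 of 16 in the synthesis list), in capitals. It is RefSeq's GRCh38.p14 sequence from 160 to 101 bases before the start, chr22:41832945-41833004, plus strand.
SREBF2: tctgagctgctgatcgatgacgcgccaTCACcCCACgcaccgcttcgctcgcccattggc
The same letters stood in 1.13% of all 35116 promoter windows, which run from 250 bases before to 50 after a start. Among promoters of genes called lower in Plasmax 1.46% held them, and 0.914% of those called higher.

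Fatty acid and triglyceride synthesis was lower in a more mixed way, with 12 of 24 members down, 3 up and a median of −0.41. The desaturase SCD, which makes oleate, had 409.7, 349 and 358 CPM in Plasmax, against 1356, 1356 and 1405 CPM in HGDMEM. Libraries of one medium differed little, and the fold change stood well outside that spread (log2 fold change −1.88, SE 0.11, adjusted p = 4.26e-09). FADS2 and FADS1, the desaturases of polyunsaturated fatty acids, fell, with log2 fold changes of −3.24 and −2.36. FADS2 had 5.97, 8.72 and 5.79 CPM in Plasmax, against 63.01, 64.2 and 67.05 CPM in HGDMEM. The fatty acid synthase FASN had 508, 485 and 487 CPM in Plasmax, against 1091, 1046 and 891 CPM in HGDMEM (log2 fold change −1.03, adjusted p = 4.13e-04). Among members that rose, GPAT3, an acyltransferase of triglyceride assembly, had 11.9, 17.1 and 12.6 CPM in Plasmax and 1.13, 1.66 and 0.635 CPM in HGDMEM (log2 fold change 3.55, adjusted p = 4.83e-05). The elongase ELOVL5 rose, with a log2 fold change of 0.54.

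Oxidation and lipid droplet genes moved in both directions, with 6 of 22 members up and 4 down. CPT1A, which brings long-chain fatty acids into mitochondria, had 187, 133 and 160.0 CPM in Plasmax, against 40.7, 43.9 and 49.5 CPM in HGDMEM. Its groups were well separated (log2 fold change 1.84, SE 0.15, adjusted p = 1.01e-07). G0S2, an inhibitor of the triglyceride lipase ATGL, had 10.9, 15.4 and 5.37 CPM in Plasmax, and in HGDMEM its only reads were in 1 library, at 0.375 CPM. The lipoprotein receptor VLDLR rose, with a log2 fold change of 3.43. FABP1, the liver fatty acid binding protein, had 164, 121 and 146 CPM in Plasmax, against 706, 557 and 863 CPM in HGDMEM (log2 fold change −2.30, adjusted p = 3.75e-08). The thiolase ACAA2 and the isomerase ECI2 fell, with log2 fold changes of −1.04 and −1.01.

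**Figure D2:**
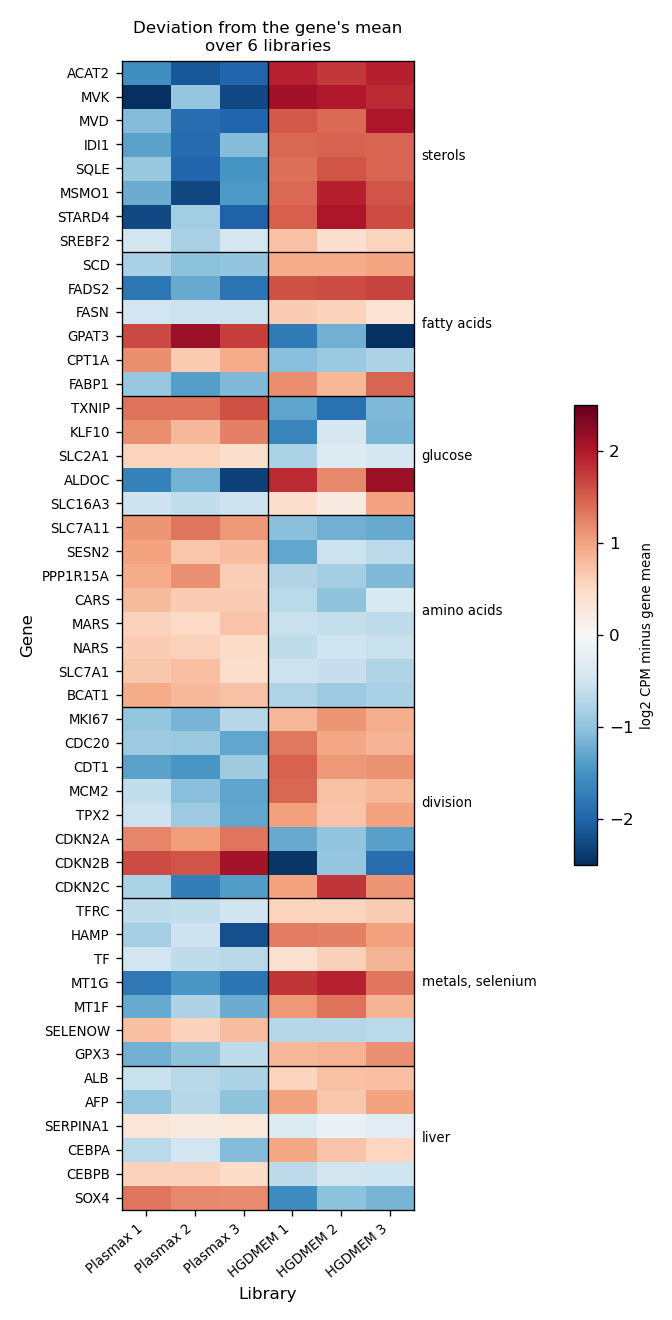
Log2 CPM of each gene in each of the 6 libraries minus the gene's mean over the 6 (colour scale from −2.5, blue, to 2.5, red, with larger deviations drawn at the end colours), for Plasmax 1 to 3 at the left and HGDMEM 1 to 3 at the right. Rows are grouped by theme, and within each block the 3 libraries of a medium share the sign of the deviation for all 48 genes drawn. The genes were picked among those called between these media, so that agreement largely follows from the choice. Over all genes the groups did not overlap for 42.6%.

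Genes that respond to glucose did not move as 1 group, with 4 of 16 members up, 2 down and a median of −0.20. TXNIP, an arrestin-like protein that restrains glucose uptake, had 282, 282 and 330.3 CPM in Plasmax, against 43.9, 30.1 and 51.2 CPM in HGDMEM. The lowest Plasmax library had more than any HGDMEM library (log2 fold change 2.84, SE 0.31, adjusted p = 2.60e-06). In LGDMEM the gene had only 1.01, 5.50 and 4.53 CPM, and HGDMEM was higher than LGDMEM by a log2 fold change of 3.44 (adjusted p = 5.70e-04). These 3 media ran Plasmax, HGDMEM, LGDMEM from high to low, and the EMEM mean lay between those of Plasmax and LGDMEM. Whether this order follows the glucose level of the media was not tested. ARRDC4, the paralog of TXNIP, had 8.03, 4.93 and 10.3 CPM in Plasmax and was at 0 in 2 of the 3 HGDMEM libraries, with 0.662 CPM in the other (log2 fold change 4.87, adjusted p = 0.00142). The fitted fold change ran from 4.34 to 8.23 with 1 library left out and was highest without HGDMEM 2. KLF10, a glucose-induced repressor, and PPARGC1A, a coactivator of gluconeogenesis, rose by log2 fold changes of 2.07 and 1.47. SLC37A4, the glucose-6-phosphate transporter, and TKFC, which phosphorylates glyceraldehyde and dihydroxyacetone, fell, with log2 fold changes of −1.17 and −0.91. PKLR, the liver pyruvate kinase, had at most 5.29 CPM in any of the 6 libraries, and its difference did not pass (log2 fold change −1.24, adjusted p = 0.280) except without Plasmax 3 (−2.73, adjusted p = 0.0470). The ChREBP gene MLXIPL did not pass either, at a log2 fold change of −0.68 (adjusted p = 0.177), nor did the gluconeogenic genes G6PC at a log2 fold change of −0.66 (adjusted p = 0.675) and PCK1 at a log2 fold change of −0.23 (adjusted p = 0.712).
TXNIP is controlled through paired E-boxes, and its promoter is shown because it was the only 1 of 13 searched in the glucose-responsive list with CACGNG, 5 further bases and CACGNG on either strand, whose fixed letters are in capitals. The window is RefSeq's GRCh38.p14 sequence from 120 to 41 bases before the start, chr1:145996620-145996699, minus strand.
TXNIP: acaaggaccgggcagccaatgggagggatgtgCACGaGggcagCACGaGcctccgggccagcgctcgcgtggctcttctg
Among all 35116 promoter windows 20 held such a pair (0.057%), and among 8672 of the genes tested 15 did (0.173%). It stood in 1 of 1094 promoters of genes called higher in Plasmax and in 3 of 1235 of those called lower.

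Glycolysis genes were mostly lower where they changed, with 11 of 26 members down, 1 up and a median of −0.43. The falls ranged from 3 to 10 when 1 library was left out and were fewest without HGDMEM 3 (4 without Plasmax 1 and 6 without Plasmax 2). ALDOC, an aldolase, had 2.27, 3.22 and 1.45 CPM in Plasmax, against 26.4, 16.9 and 32.1 CPM in HGDMEM and kept its call whichever library was left out (log2 fold change −3.41, adjusted p = 5.84e-06). The lactate exporter SLC16A3 had 99.3, 93.3 and 99.2 CPM in Plasmax, against 190.0, 167 and 286 CPM in HGDMEM (log2 fold change −1.14, adjusted p = 1.37e-04). The glucose transporter SLC2A1 was the member that rose, with 1213, 1222 and 1119 CPM in Plasmax and 480.3, 657 and 608 CPM in HGDMEM. Every Plasmax library stood above every HGDMEM library (log2 fold change 1.03, SE 0.19, adjusted p = 5.53e-04). The enzymes PKM, GAPDH and ENO1 did not pass, at log2 fold changes of −0.30, 0.28 and 0.12, but GAPDH ran from 0.018 without HGDMEM 1 to 0.78 without HGDMEM 2, where it passed (adjusted p = 0.0120). Targets of the hypoxia factors overlapped with this list and were split, with 4 of 27 up and 7 down. EPO, the erythropoietin gene, fell to at most 1.52 CPM in Plasmax, against 10.9, 9.93 and 18.2 CPM in HGDMEM (log2 fold change −3.98, adjusted p = 3.30e-05), while VEGFA, the angiogenic factor, rose, with a log2 fold change of 0.88. The 7 falls of hypoxia targets became 4 without HGDMEM 3, Plasmax 1 or Plasmax 2.

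Amino acid response genes had the highest share of rises among the gene lists. Of 31 measured ATF4 targets 22 rose and 2 fell, against 12.8% and 14.1% of all genes, with a median log2 fold change of 1.04 (19 to 22 rises with 1 library left out). SLC7A11, the cystine importer, had 494, 580.1 and 489 CPM in Plasmax, against 112, 100.3 and 96.02 CPM in HGDMEM. The groups did not overlap (log2 fold change 2.34, SE 0.26, adjusted p = 3.83e-06). CHAC1, which degrades glutathione, had 2.68, 4.55 and 4.96 CPM in Plasmax and no read in HGDMEM. It was at least 21.9-fold higher in Plasmax against a floor of 3 counts over the 3 HGDMEM libraries, a bound that covers counting error only. Low genes had been left out of the deposited table, so a gene without reads in HGDMEM could be in it only through other media. The stress genes PPP1R15A, SESN2 and DDIT4 rose by log2 fold changes of 1.80, 1.62 and 1.52. SESN2, an amino acid sensor that restrains mTORC1, had 77.03, 62.4 and 65.5 CPM in Plasmax, against 15.6, 26.5 and 24.5 CPM in HGDMEM. ATF4 itself did not pass, with 1972, 2108 and 1684 CPM in Plasmax and 1574, 1792 and 1629 CPM in HGDMEM (log2 fold change 0.21, adjusted p = 0.276). DDIT3, the CHOP factor, did not pass either, at a log2 fold change of 0.76 (adjusted p = 0.129). The 2 members that fell were ALDH18A1, of proline synthesis, at a log2 fold change of −0.79 and ATF5 at a log2 fold change of −0.82, the second of which lost its call when any 1 of 5 libraries was left out (highest adjusted p 0.146).

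Cytosolic tRNA synthetases, which charge tRNAs with amino acids, rose for 9 of 20 members and fell for 0. CARS, the cysteine enzyme, had 155, 138 and 139 CPM in Plasmax, against 55.7, 44.7 and 68.3 CPM in HGDMEM. MARS, for methionine, had 281, 264 and 308 CPM in Plasmax, against 127, 124 and 120.3 CPM in HGDMEM. NARS, for asparagine, had 296, 287 and 265 CPM in Plasmax, against 124, 136 and 130.5 CPM in HGDMEM. In all 3 genes each Plasmax library lay far above the highest HGDMEM library, with log2 fold changes of 1.36, 1.20 and 1.12 and adjusted p of 3.97e-05, 1.03e-04 and 6.76e-06. GARS, SARS and YARS rose by log2 fold changes of 1.19, 0.99 and 0.81. The members for aspartate, lysine and glutamine did not pass, at a log2 fold change of 0.01 for DARS, −0.03 for KARS and −0.24 for QARS.
ATF4 acts with C/EBP partners on response elements, and 5 promoters of genes that rose are shown because each holds the letters TGATGNAA on either strand, in capitals. The sequences are RefSeq's in GRCh38.p14. CHAC1 runs from 230 to 181 bases before the start (chr15:40953241-40953290, plus strand), and the synthetase genes from 35 bases before to 25 after it, for CARS at chr11:3057399-3057458 (minus), MARS at chr12:57488033-57488092 (plus), NARS at chr18:57621812-57621871 (minus) and TARS, the threonine enzyme, at chr5:33440930-33440989 (plus).
CHAC1: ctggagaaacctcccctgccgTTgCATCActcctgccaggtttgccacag
CARS: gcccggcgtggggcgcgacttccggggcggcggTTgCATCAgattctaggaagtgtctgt
MARS: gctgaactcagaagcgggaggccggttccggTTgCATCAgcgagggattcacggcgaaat
NARS: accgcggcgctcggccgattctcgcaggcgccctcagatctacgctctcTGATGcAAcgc
TARS: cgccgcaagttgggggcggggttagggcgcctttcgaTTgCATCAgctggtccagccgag
These letters stood in 6 of 16 synthetase promoters found (37.5%), in 4 of 25 of the ATF4 list (16%), and in 3.62% of all promoter windows. Among promoters of the genes tested 1.53% held them, with 2.19% of those called higher in Plasmax and 1.54% of those called lower. Of the 6 synthetase genes, CARS, MARS, NARS and TARS rose (0.66 for TARS), while AARS and IARS, chosen here for the match, did not pass, at log2 fold changes of 0.23 and 0.13.

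Amino acid transporters rose for 9 of 25 members and fell for 2 (1 without Plasmax 1, Plasmax 3 or HGDMEM 2). The rises of SLC7A11, SLC7A1 and SLC1A5 are also counted among the ATF4 targets, and that of SLC7A11 in the NRF2 and glutathione list, so these counts are not separate. Cationic amino acids enter through SLC7A1, which had 325, 343 and 278 CPM in Plasmax, against 141, 136 and 121 CPM in HGDMEM (log2 fold change 1.25, adjusted p = 9.89e-05). The neutral amino acid carriers SLC38A1 and SLC1A5 rose by log2 fold changes of 1.21 and 1.04, and SLC7A2 by 1.39. SLC7A5, the large neutral carrier, did not pass and varied widely, with 115, 152 and 290.4 CPM in Plasmax and 146, 253 and 135 CPM in HGDMEM. Enzymes of amino acid breakdown and the urea cycle were mixed, with 6 of 33 up and 7 down, and the count up was 2 without Plasmax 3 and 3 without HGDMEM 3. BCAT1, a branched-chain transaminase, had 339, 309.9 and 294 CPM in Plasmax, against 106, 95.01 and 102 CPM in HGDMEM (log2 fold change 1.64, adjusted p = 3.51e-07), and NAGS, which makes the activator of the urea cycle, rose, with a log2 fold change of 1.94. MAT1A, the hepatic S-adenosylmethionine synthetase, had 81.8, 80.9 and 67.4 CPM in Plasmax, against 168, 162 and 157 CPM in HGDMEM, and fell (log2 fold change −1.08, adjusted p = 2.20e-04).

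**Figure D3:**
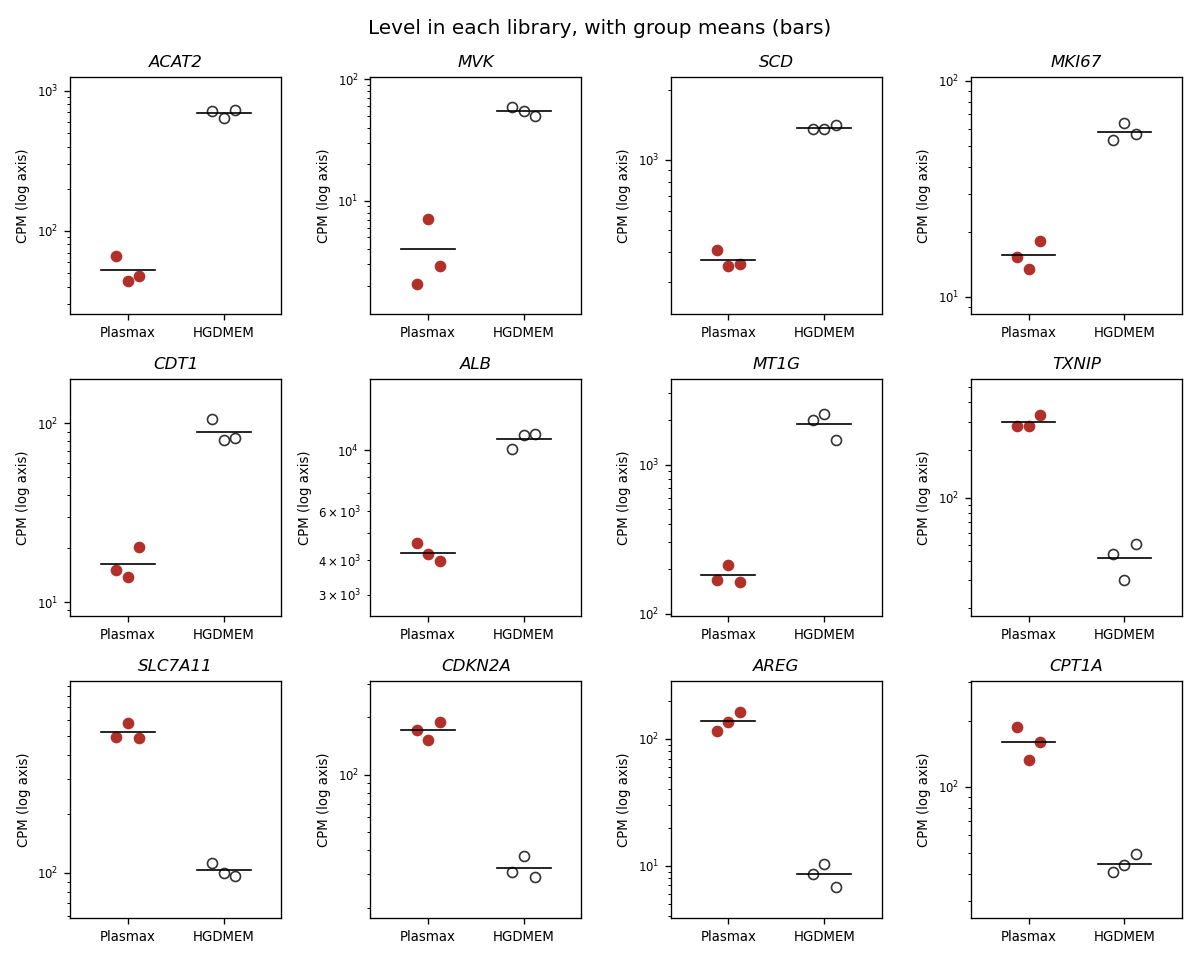
Level of 12 genes in CPM (log axes) in each of the 3 Plasmax libraries (left, filled) and the 3 HGDMEM libraries (right, open), with a bar at each group's mean. In all 12, picked among called genes, the groups do not overlap (42.6% of all genes): ACAT2, MVK, SCD, MKI67, CDT1, ALB and MT1G are lower in Plasmax and TXNIP, SLC7A11, CDKN2A, AREG and CPT1A are higher.

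Most genes of cell division were lower in Plasmax. Of 36 mitosis genes 34 fell and 0 rose, at a median of −1.36 on the log2 scale, and of 44 DNA replication genes 36 fell and 0 rose, with a median of −1.39, against 14.1% of all genes that fell. With 1 library left out 29 to 32 and 33 to 37 fell. MKI67, the Ki-67 proliferation antigen, had 15.2, 13.5 and 18.2 CPM in Plasmax, against 53.5, 64.1 and 56.5 CPM in HGDMEM. The highest Plasmax library lay far below the lowest HGDMEM library (log2 fold change −1.89, SE 0.24, adjusted p = 1.34e-05). CDC20, an activator of the anaphase-promoting complex, had 45.7, 44.9 and 34.5 CPM in Plasmax, against 212, 166 and 155 CPM in HGDMEM (log2 fold change −2.09, adjusted p = 3.31e-05). CDT1, which loads the replicative helicase at origins, had 15.04, 13.8 and 20.5 CPM in Plasmax, against 106, 80.4 and 83.3 CPM in HGDMEM (log2 fold change −2.45, adjusted p = 5.15e-07). Its partner CDC6 and the helicase subunit MCM2 fell, with log2 fold changes of −2.32 and −2.0, the spindle proteins TPX2, KIF2C and KIF11 by −1.80, −1.84 and −1.80, and the checkpoint kinase BUB1 by −1.98. The mitosis members without a call were NDC80 at a log2 fold change of −0.13 (adjusted p = 0.802) and TTK at a log2 fold change of −0.68 (adjusted p = 0.278). In these bulk libraries fewer dividing cells and less RNA per dividing cell cannot be told apart.
Many mitotic genes carry a cell cycle homology region, bound by the DREAM and MuvB complexes, and 6 promoters are shown with its letters TTTGAA, found on either strand, in capitals. Each runs from 75 bases before the start to the base before it, in RefSeq's GRCh38.p14, at chr10:128126424-128126498 (minus strand) for MKI67, chr1:43358906-43358980 (plus) for CDC20, chr16:23678814-23678888 (plus) for PLK1, chr15:90994536-90994610 (minus) for PRC1, chr10:92593055-92593129 (plus) for KIF11 and chr9:89311120-89311194 (plus) for CKS2. PLK1, PRC1 and CKS2, a mitotic kinase, a spindle midzone protein and a kinase subunit chosen here for their matches, fell, with log2 fold changes of −1.42, −1.36 and −1.68.
MKI67: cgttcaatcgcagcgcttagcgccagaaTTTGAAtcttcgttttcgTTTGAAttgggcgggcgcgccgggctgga
CDC20: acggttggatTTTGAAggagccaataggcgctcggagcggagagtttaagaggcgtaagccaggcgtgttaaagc
PLK1: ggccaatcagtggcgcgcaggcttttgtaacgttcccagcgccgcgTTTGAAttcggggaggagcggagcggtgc
PRC1: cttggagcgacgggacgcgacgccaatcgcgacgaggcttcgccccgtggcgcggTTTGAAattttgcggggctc
KIF11: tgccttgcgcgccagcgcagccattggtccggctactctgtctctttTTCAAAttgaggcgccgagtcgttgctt
CKS2: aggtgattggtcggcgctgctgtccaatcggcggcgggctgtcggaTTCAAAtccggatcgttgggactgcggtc
The letters stood in 21 of 30 mitosis promoters found (70%), in 15.2% of all promoter windows and in 9.47% of those of the genes tested. They stood in 13.8% of the promoters of genes called lower and in 7.5% of those called higher. Among the mitosis promoters with the letters was that of NDC80, which did not pass.

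Regulators of the step into S phase changed in both directions. Of 16 members 6 rose and 5 fell. The inhibitor genes CDKN2A and CDKN2B, which lie side by side and have p16 and p15 among their products, were both higher. Counts per gene from 3′ ends do not tell apart transcripts of a gene that share an end. CDKN2A had 172, 152 and 188 CPM in Plasmax, against 30.8, 37.6 and 28.98 CPM in HGDMEM, and CDKN2B had 43.9, 42.3 and 59.9 CPM in Plasmax, against 2.63, 7.28 and 3.81 CPM in HGDMEM. Each Plasmax library was several times above any HGDMEM library, with log2 fold changes of 2.39 (SE 0.18, adjusted p = 4.04e-08) and 3.39 (SE 0.45, adjusted p = 2.37e-05). CDKN1A, the p21 gene, had 268, 188 and 252 CPM in Plasmax, against 70.5, 96.7 and 79.7 CPM in HGDMEM (log2 fold change 1.52, adjusted p = 2.30e-06). CDKN2C, encoding the related inhibitor p18, went the other way, with 7.62, 3.98 and 4.96 CPM in Plasmax, against 26.4, 45.2 and 28.3 CPM in HGDMEM (log2 fold change −2.60, adjusted p = 1.97e-05). The D-type cyclin CCND1 rose, with a log2 fold change of 0.53, whereas the kinase gene CDK2 fell, with a log2 fold change of −0.97, and CDK4 did not pass, at a log2 fold change of −0.25. Of 30 p53 targets 11 rose and 1 fell, with a median log2 fold change of 0.52. BBC3, encoding the death protein PUMA, had 285, 256 and 303 CPM in Plasmax, against 79.1, 97.99 and 103 CPM in HGDMEM (log2 fold change 1.59, adjusted p = 6.31e-06), and RRM2B, a ribonucleotide reductase subunit of resting cells, and TP53INP1 rose by log2 fold changes of 1.56 and 1.05. SESN2 and GDF15 are counted among both the p53 and the ATF4 targets. The member that fell, TRIAP1, at a log2 fold change of −0.49, lost its call when any 1 of 5 libraries was left out (highest adjusted p 0.116), and AEN did not pass, at a log2 fold change of −0.08.

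**Figure D4:**
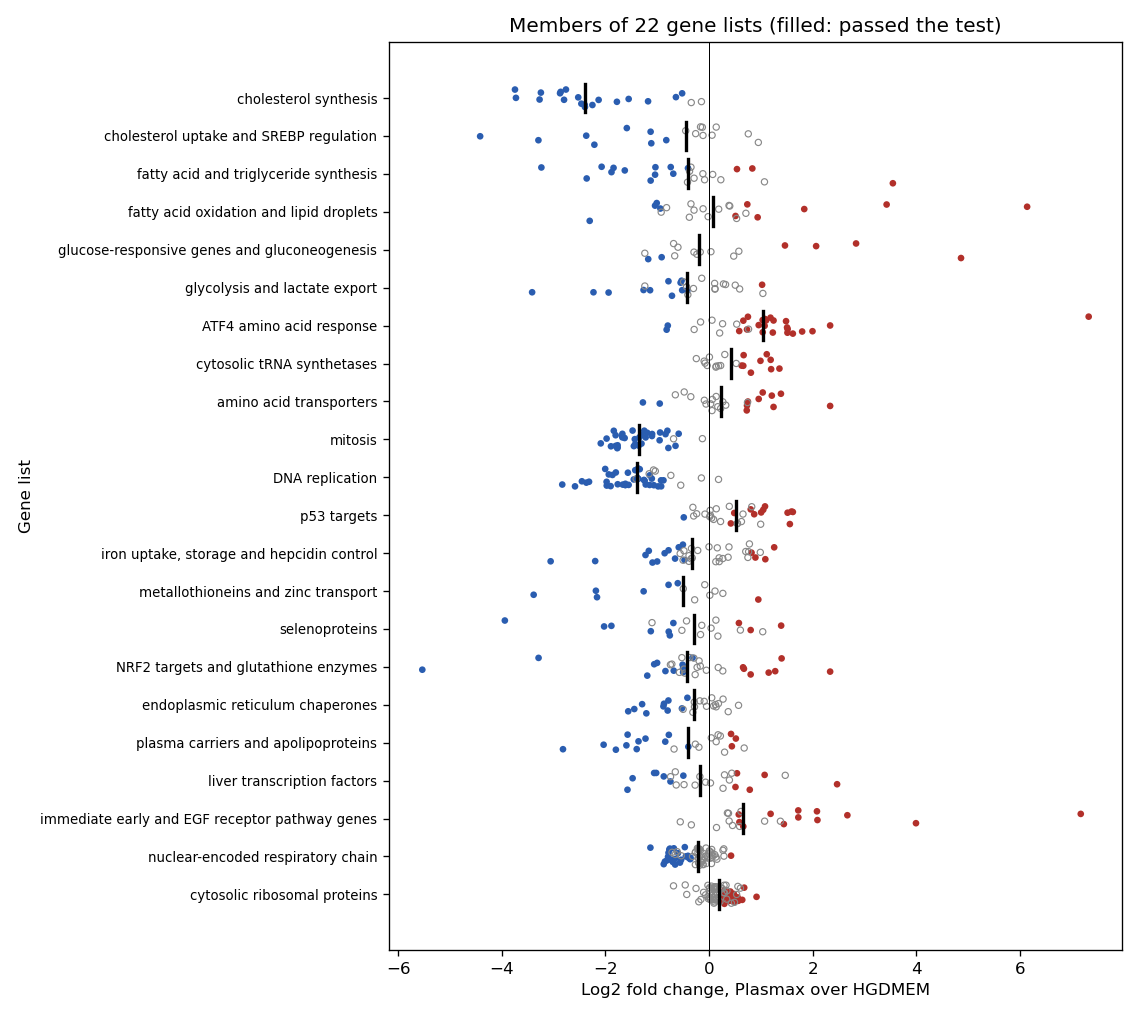
Log2 fold change, Plasmax over HGDMEM (horizontal axis), of each measured member of 22 gene lists (rows). Filled points passed the test, open points did not, and the black tick is the list's median. All measured sterol synthesis and mitosis genes lie at the left of 0, as do the DNA replication genes with 1 exception at 0.18, and ATF4 targets lie mostly at the right.

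Iron genes were mostly lower where they changed, with 12 of 38 members down and 4 up, against 14.1% and 12.8% of all genes, and the 12 became 6 without HGDMEM 3 and 7 without HGDMEM 2. Hepatocytes take up iron through the transferrin receptor, store it in ferritin and secrete hepcidin, which blocks iron export. TFRC, the transferrin receptor, had 126, 128 and 139 CPM in Plasmax, against 288, 287 and 305 CPM in HGDMEM. The spread within a medium was small beside that gap (log2 fold change −1.16, SE 0.11, adjusted p = 5.52e-07). HAMP, the hepcidin gene, had 8.03, 10.05 and 3.10 CPM in Plasmax, against 34.5, 34.1 and 29.2 CPM in HGDMEM (log2 fold change −2.20, adjusted p = 2.43e-04). Transferrin itself, TF, had 560.0, 500.1 and 480.4 CPM in Plasmax, against 1010.1, 1181 and 1411 CPM in HGDMEM (log2 fold change −1.23, adjusted p = 1.57e-06). The ferritin subunits parted, with FTL lower (log2 fold change −0.65, adjusted p = 3.85e-05) and FTH1 without a call at a log2 fold change of 0.20 (adjusted p = 0.296), and both have many near-identical pseudogenes that the counting could draw reads to. The iron exporter SLC40A1 did not pass, with 15.2, 21.6 and 10.3 CPM in Plasmax and 10.5, 8.11 and 8.88 CPM in HGDMEM (log2 fold change 0.78, adjusted p = 0.0724), except without Plasmax 3 (adjusted p = 0.0296). ACO1, the iron regulatory protein IRP1, fell, with a log2 fold change of −1.09. Members that rose included ACVR1, a BMP receptor, SMAD4 and NEO1, which binds hemojuvelin, at log2 fold changes of 1.26, 0.90 and 1.09. ID1, a BMP target, did not pass, at a log2 fold change of −0.50 (adjusted p = 0.0509), though it passed in 6 alternatives, DESeq2 and limma voom among them. HMOX1, which breaks down haem, did not pass either, at a log2 fold change of −0.48 (adjusted p = 0.139), except without HGDMEM 1 (adjusted p = 0.0258).

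Metallothioneins, small zinc- and copper-binding proteins, were lower for several family members. MT1G had 167, 211 and 164 CPM in Plasmax, against 1994, 2189.6 and 1467 CPM in HGDMEM, and MT1F had 123, 172 and 125 CPM in Plasmax, against 624, 753 and 533 CPM in HGDMEM. Neither group overlapped the other (log2 fold changes −3.38 and −2.18, adjusted p of 1.43e-06 and 1.80e-07). MT1X and MT1M fell, with log2 fold changes of −1.26 and −2.16. MT2A, the remaining well known member, did not pass, with 6467, 7959 and 6394 CPM in Plasmax and 5248, 6699 and 5339.5 CPM in HGDMEM (log2 fold change 0.27, adjusted p = 0.136). The MT1 genes are near-identical copies on 1 chromosome, so the split of reads between them is uncertain. In the whole list of 13 with zinc transporters 6 fell, with and without any single library, and 1 rose, a call lost without Plasmax 2, Plasmax 3, HGDMEM 1 or HGDMEM 2. The zinc and iron importer SLC39A14 fell, with a log2 fold change of −0.78, while the zinc exporter SLC30A1, a target of the same zinc sensor as the metallothioneins, did not pass, at a log2 fold change of 0.12 (adjusted p = 0.664).

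Selenoproteins split, with 3 of 20 up and 7 down. GPX1, glutathione peroxidase 1, whose transcript is degraded when selenium is low, had 57.7, 57.6 and 64.7 CPM in Plasmax, against 39.2, 39.7 and 41.7 CPM in HGDMEM (log2 fold change 0.58, adjusted p = 0.0175, up to 0.0649 with 1 library left out). SELENOW, a small selenoprotein also sensitive to selenium, had 129, 114 and 130.02 CPM in Plasmax, against 46.9, 46.8 and 48.2 CPM in HGDMEM (log2 fold change 1.39, adjusted p = 1.95e-05). Its 3 Plasmax libraries all lay above 100 CPM and its HGDMEM libraries below 50. TXNRD1, thioredoxin reductase 1, rose, with a log2 fold change of 0.80 (adjusted p = 0.00487). Among those that fell, SELENOP, the plasma selenium carrier, had 507, 434 and 452 CPM in Plasmax, against 993, 941 and 1100.3 CPM in HGDMEM (log2 fold change −1.12, adjusted p = 8.93e-06), and plasma peroxidase GPX3 had 23.5, 27.1 and 34.9 CPM in Plasmax, against 96.6, 99.3 and 119.9 CPM in HGDMEM (log2 fold change −1.88, adjusted p = 8.64e-07). The deiodinase DIO1 and another thioredoxin reductase, TXNRD3, fell, with log2 fold changes of −3.94 and −2.02, the second of which lost its call without HGDMEM 1 (adjusted p = 0.0674).

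The NRF2 and glutathione list was also divided, with 7 of 34 up and 12 down. The glutathione transferase GSTA1 showed the largest fall among genes averaging 10 CPM or more, a mean it reached only through HGDMEM. It had 0.824, 0.758 and 0.620 CPM in Plasmax, against 32.1, 28.5 and 45.3 CPM in HGDMEM. Every Plasmax library was under 1 CPM, and the fall was clear of the spread (log2 fold change −5.53, SE 0.49, adjusted p = 2.26e-07). Its near-identical neighbour GSTA2 fell, with a log2 fold change of −3.29 (−5.64 without Plasmax 3), and reads may be shared between them. GCLC, which limits glutathione synthesis, had 93.9, 119.6 and 109 CPM in Plasmax, against 56.6, 44.4 and 44.2 CPM in HGDMEM (log2 fold change 1.15, adjusted p = 8.56e-05). The exporters ABCC3 and ABCC1 and the autophagy receptor SQSTM1 rose by log2 fold changes of 1.40, 1.28 and 0.67. Chaperones of the endoplasmic reticulum fell for 10 of 25 members and rose for 0 (7 or 8 falls with 1 library left out). CALR, the calcium-binding lectin chaperone, had 526, 446 and 442 CPM in Plasmax, against 1012, 1123 and 1133 CPM in HGDMEM (log2 fold change −1.21, adjusted p = 2.54e-05), and MANF, CRELD2 and SDF2L1, all induced by misfolded protein, fell, with log2 fold changes of −1.44, −1.56 and −1.29. The chaperones HSP90B1 and CANX did not pass, at log2 fold changes of 0.05 and −0.09.

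Secreted liver proteins were lower for some of the best known hepatocyte products and not for others. Of 23 plasma carriers and apolipoproteins 11 fell and 3 rose. ALB, with the values given above, fell, with a log2 fold change of −1.36 (SE 0.10, adjusted p = 3.01e-08). AFP, the fetal counterpart of albumin, had 1698, 2017 and 1664 CPM in Plasmax, against 6714, 5330.1 and 6647 CPM in HGDMEM, and fell (log2 fold change −1.80, SE 0.12, adjusted p = 1.70e-08). APOH, MTTP, which loads lipid onto apolipoprotein B, and APOC3 fell, with log2 fold changes of −1.57, −1.39 and −1.59. SERPINA1, the alpha-1 antitrypsin gene, had 1141, 1087 and 1112 CPM in Plasmax, against 733, 826 and 772 CPM in HGDMEM, and rose (log2 fold change 0.52, adjusted p = 0.00112). APOB, the structural protein of very low density lipoprotein, did not pass, with 3439, 3319 and 3249.9 CPM in Plasmax and 3691, 3153 and 2854 CPM in HGDMEM (log2 fold change 0.05, adjusted p = 0.794). Coagulation genes were split, with 4 of 19 up and 6 down (2 up without HGDMEM 1, HGDMEM 3 or Plasmax 1). The fibrinogen chains FGB and FGG did not pass, at log2 fold changes of 0.11 and 0.07, while antithrombin, SERPINC1, fell, with a log2 fold change of −1.41, and the hepatokine FGL1 rose, with a log2 fold change of 1.51. Drug, steroid and bile acid enzymes fell for 10 of 20 members and rose for 2, and 6 fell without Plasmax 3. SULT2A1, which sulphates steroids and bile acids, had 40.8, 26.7 and 30.2 CPM in Plasmax, against 185, 222 and 229 CPM in HGDMEM (log2 fold change −2.70, adjusted p = 4.26e-09), and CYP1A1, a target of the aryl hydrocarbon receptor, rose, with a log2 fold change of 2.33.

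Liver transcription factors were divided, with 5 of 25 up and 7 down (3 up without HGDMEM 3). A pair of C/EBP factors that can bind the same sites moved apart. CEBPA, which marks mature hepatocytes, had 88.4, 100.3 and 66.4 CPM in Plasmax, against 274, 230.2 and 204 CPM in HGDMEM, and CEBPB, induced by stress and cytokines, had 619, 623 and 575 CPM in Plasmax, against 265, 302 and 297 CPM in HGDMEM. Both were separated in all libraries, with log2 fold changes of −1.47 (adjusted p = 1.13e-04) and 1.07 (adjusted p = 9.27e-04). The bile acid receptor NR1H4 and the corepressor NR0B2 fell, with log2 fold changes of −1.02 and −1.06, the second call lost without Plasmax 2 (adjusted p = 0.0592). SOX4, a progenitor factor, had 124, 112 and 111 CPM in Plasmax, against 16.5, 24.00 and 21.8 CPM in HGDMEM (log2 fold change 2.47, adjusted p = 4.23e-08). Progenitor markers differed among themselves, since KRT19, a biliary keratin, had 432, 477 and 448 CPM in Plasmax, against 153, 171 and 179 CPM in HGDMEM (log2 fold change 1.43, adjusted p = 7.61e-08), and EPCAM rose, with a log2 fold change of 0.56, while AFP and DLK1 fell, DLK1 by −1.0. GPC3, a further fetal marker, did not pass, at a log2 fold change of 0.25.

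Growth factor and immediate early genes were higher where they changed, with 12 of 23 up and 0 down (9 to 12 with 1 library left out). AREG, a ligand of the EGF receptor, had 116, 135 and 162 CPM in Plasmax, against 8.63, 10.3 and 6.77 CPM in HGDMEM. All Plasmax libraries were above 100 CPM and all HGDMEM libraries below 11 CPM (log2 fold change 4.0, SE 0.27, adjusted p = 1.70e-08). EREG, a second ligand, had 3.09, 4.55 and 3.31 CPM in Plasmax and no read in HGDMEM, at least 19.7-fold higher in Plasmax by the same floor. Like CHAC1, it could be in the deposited table only through media other than HGDMEM. The AP-1 members FOSL2 and JUNB and the phosphatase DUSP5 rose by log2 fold changes of 2.08, 1.72 and 2.09, while DUSP6, a readout of ERK signalling, did not pass, at a log2 fold change of 0.15 (adjusted p = 0.721). Genes of matrix, actin and mesenchymal cells rose for 11 of 23 members and fell for 1. The integrin ITGA2 and the laminin LAMB1 rose by log2 fold changes of 1.82 and 1.07, and CYR61, a matricellular target of YAP, by 2.33, whereas SPARC fell, with a log2 fold change of −1.05.

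Insulin and FOXO responsive genes rose for 7 of 19 members and fell for 1. IGFBP4, which binds insulin-like growth factors, had 218, 231 and 229 CPM in Plasmax, against 50.6, 58.4 and 64.7 CPM in HGDMEM (log2 fold change 1.96, adjusted p = 3.91e-08), and IGFBP2, IRS1 and TRIB1 rose by log2 fold changes of 3.55, 1.35 and 1.46. IGFBP1, the member most often used as a readout of insulin in liver cells, had 854, 1169.8 and 870.5 CPM in Plasmax and 134, 121 and 587 CPM in HGDMEM. HGDMEM 3 stood far above the other 2 libraries of its medium, and the difference did not pass (log2 fold change 1.78, SE 0.75, adjusted p = 0.0889). It passed in 5 alternatives, with limma voom, in a fit to the 2 media alone, with the replicate block, without HGDMEM 3 and without LGDMEM 3 in the shared spread. Of 11 glucocorticoid-induced genes 3 rose and 2 fell, with 1 fall left without Plasmax 1, Plasmax 3, HGDMEM 2 or HGDMEM 3. The list held the largest rise among genes averaging 10 CPM or more, a mean reached here only through the Plasmax libraries. TSC22D3, the leucine zipper GILZ, had 23.7, 27.9 and 22.3 CPM in Plasmax, against 0, 1.82 and 0.212 CPM in HGDMEM (log2 fold change 5.04, SE 0.65, adjusted p = 1.86e-05, and 7.61 without HGDMEM 2). SGK1, a kinase induced by the same hormones, had 8.65, 10.2 and 3.93 CPM in Plasmax, against 23.6, 24.2 and 29.2 CPM in HGDMEM (log2 fold change −1.74, adjusted p = 8.29e-04). FKBP5, another such gene, did not pass, at a log2 fold change of −0.37 (adjusted p = 0.248). Acute phase and complement genes rose for 7 of 22 members and fell for 3 (1 without Plasmax 2, Plasmax 3 or HGDMEM 3). SOCS3, the feedback inhibitor of STAT3, had 24.1, 17.4 and 17.98 CPM in Plasmax, against 2.06, 1.32 and 0 CPM in HGDMEM (log2 fold change 4.07, adjusted p = 1.68e-04), and the interleukin 6 receptor IL6R and the antichymotrypsin SERPINA3 rose by log2 fold changes of 1.58 and 2.43.

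Mitochondrial and nuclear genes of the respiratory chain mostly differed in opposite directions where they changed. Of the 13 genes of the mitochondrial genome 7 rose and 1 fell (0 without Plasmax 1, HGDMEM 1 or HGDMEM 3), with a median log2 fold change of 0.35, and of 71 nuclear genes 1 rose (0 without Plasmax 2 or HGDMEM 2) and 23 fell, with a median of −0.20. ND1, of complex I, had 5789.6, 7081 and 7529 CPM in Plasmax, against 4460.0, 3580.0 and 3851 CPM in HGDMEM (log2 fold change 0.78, adjusted p = 3.95e-04). The nuclear complex I gene NDUFC1 had 101, 109 and 80.8 CPM in Plasmax, against 204, 226 and 207 CPM in HGDMEM (log2 fold change −1.13, adjusted p = 1.76e-05). SDHB and UQCRFS1, iron-sulphur subunits of complexes II and III, fell, with log2 fold changes of −0.87 and −0.81. Members such as COX4I1 and UQCRB did not pass, at log2 fold changes of −0.12 and −0.0026. Cytosolic ribosomal proteins rose for 23 of 74 members and fell for 0, with a small median of 0.19. With 1 library left out 13 to 21 rose, fewest without HGDMEM 2 (14 without Plasmax 1 and 15 without HGDMEM 1). Of all 113 genes averaging 1000 CPM or more over the 6 libraries, 35 rose and 20 fell. RPS18 had 1117, 1112 and 1163 CPM in Plasmax, against 590.0, 521 and 684 CPM in HGDMEM (log2 fold change 0.92, adjusted p = 4.31e-05), though many ribosomal genes have near-identical pseudogenes. Lysosome and autophagy genes were mixed, with 8 of 23 up and 3 down. The protease CTSB had 812, 775 and 744 CPM in Plasmax, against 364, 361 and 384 CPM in HGDMEM (log2 fold change 1.07, adjusted p = 3.29e-05), GABARAPL1 and MAP1LC3B of the autophagosome rose by log2 fold changes of 2.09 and 0.99, and the sialidase NEU1 and its partner CTSA fell, with log2 fold changes of −0.89 and −0.74.

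Among genes that averaged 10 CPM or more and whose groups were apart, the 12 largest rises included several not yet described. CD109, a surface protein that restrains TGF-beta signalling, had 28.2, 24.1 and 36.6 CPM in Plasmax, against 0.938, 0.993 and 1.06 CPM in HGDMEM (log2 fold change 4.86, SE 0.41, adjusted p = 1.33e-07). SERPINE2, a secreted protease inhibitor, had 648, 645 and 678 CPM in Plasmax, against 35.3, 73.00 and 44.2 CPM in HGDMEM (log2 fold change 3.69, SE 0.23, adjusted p = 6.09e-09). The protease inhibitor CSTA, the receptors TIE1 and NGFR, the secreted LAIR2 and the progestin receptor PAQR5 rose by log2 fold changes of 3.88, 3.63, 3.63, 3.48 and 3.21. Among the 12 largest falls, those in none of the lists were HOXD1, a homeobox gene, at a log2 fold change of −3.27 and AGXT, the liver glyoxylate aminotransferase, at a log2 fold change of −3.19. Of all genes, 6 had no read in one of the 2 media. Besides CHAC1 and EREG, which had none in HGDMEM, MSMB, RCBTB2, LCN15 and DBIL5P had none in Plasmax and were at least 8.37-fold, 8.06-fold, 7.75-fold and 7.13-fold lower there by the floor of 3 counts over 3 libraries. These 4 had between 23 and 27 counts in all in HGDMEM. Low genes had been left out of the deposited table, so each of the 6 could be in it only through media in which it had reads. The bounds are therefore given as a description. Genes under 2.51 CPM in every library of 1 of the 2 media could likewise be in the table only through other media. Among those named were TSC22D3, CD109, SOCS3, ARRDC4, G0S2 and GPAT3, low in HGDMEM, and GSTA1 and EPO, low in Plasmax. Their fold changes and adjusted p are to be read with that limit.

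**Figure D5:**
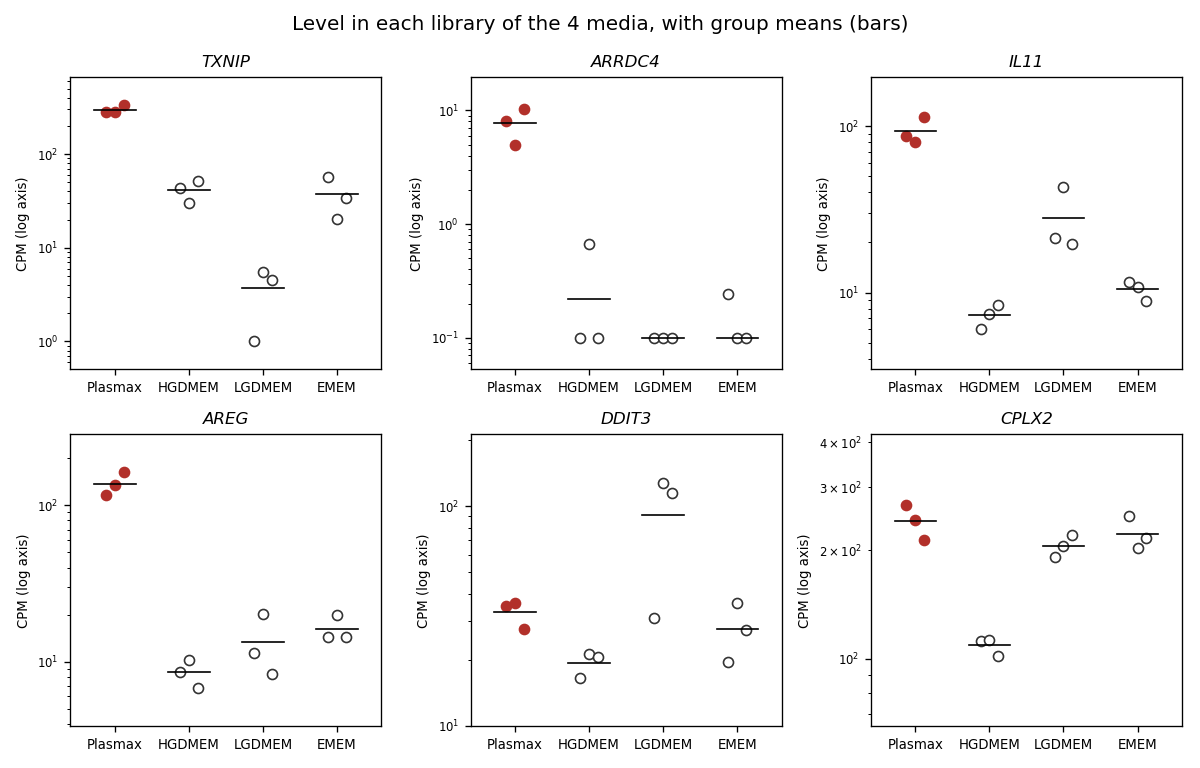
Level of 6 genes in CPM (log axes) in each library of Plasmax, HGDMEM, LGDMEM and EMEM, 3 libraries each, with a bar at each group's mean and values or means under 0.1 CPM drawn at 0.1 CPM. TXNIP is highest in Plasmax and lowest in LGDMEM, IL11 and AREG are highest in Plasmax, and DDIT3 has its highest mean in LGDMEM.

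Since Plasmax and HGDMEM differ in glucose and in much else, the same HGDMEM libraries were set beside LGDMEM and EMEM. The comparisons share libraries, so each is given by its own values. HGDMEM differed from LGDMEM in 7 genes, or 15 with the replicate number as a block (0.064%, with 0.0183% higher and 0.0457% lower in HGDMEM, and 860 at an unadjusted p under 0.05). It differed from EMEM in 18 genes, or 23 with the block (0.164%, with 0.0365% higher and 0.128% lower, and 830 unadjusted). Plasmax differed from LGDMEM in 2321 genes (21.2%, with 9.48% higher and 11.7% lower) and from EMEM in 2417 (22.1%, with 10% higher and 12.1% lower). Both small counts depended on single libraries, with 4 to 118 genes between HGDMEM and LGDMEM, the lowest without LGDMEM 2 and the highest without LGDMEM 1, and 1 to 7 between HGDMEM and EMEM, the lowest without HGDMEM 2 and the highest without EMEM 1. Of the 2947 genes called between Plasmax and HGDMEM, 1879 were called in the same direction against LGDMEM, 1951 against EMEM and 1561 against both, and 677 against neither. The test of HGDMEM against LGDMEM is also the test of whether the Plasmax fold change differs between those 2 references, and 5 of the 2947 genes passed it. Besides TXNIP, IL11, an interleukin 6 family cytokine, had 87.5, 80.9 and 113 CPM in Plasmax, 6.00, 7.45 and 8.46 CPM in HGDMEM and 21.2, 43.2 and 19.5 CPM in LGDMEM. Its log2 fold change for Plasmax was 3.68 over HGDMEM and 1.74 over LGDMEM, and the difference passed (HGDMEM over LGDMEM −1.95, adjusted p = 0.00527). CPLX2, a complexin of vesicle fusion, rose, with a log2 fold change of 1.14 over HGDMEM, with 0.23 over LGDMEM and 0.12 over EMEM, and HGDMEM was lower than both (adjusted p = 0.00512 and 0.00194). DDIT3 had its highest mean in LGDMEM, where the libraries spread from 31.05 to 128 CPM, against which HGDMEM was lower by a log2 fold change of −2.24 (adjusted p = 0.0122). SLC2A3, a glucose transporter, was lower in HGDMEM than in LGDMEM as well (log2 fold change −1.07, adjusted p = 0.0401). It was also lower in Plasmax than in HGDMEM (log2 fold change −0.53, adjusted p = 0.0486, lost when any 1 of 5 libraries was left out, up to 0.258). In a fit to HGDMEM and LGDMEM alone 2 genes passed, all of them higher in HGDMEM. The lower levels of IL11, CPLX2, DDIT3 and SLC2A3 in HGDMEM than in LGDMEM therefore did not pass in that fit.

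The lists were set against the other media in the same way, with no test between lists or media. Sterol synthesis fell for 19 of 21 members against HGDMEM, 17 against LGDMEM and 19 against EMEM, with medians of −2.40, −2.24 and −2.35. Mitosis genes fell for 34, 31 and 34 of 36, with medians of −1.36, −1.15 and −1.38. The ATF4 list rose for 22 of 31 members against HGDMEM, for 9 against LGDMEM and for 19 against EMEM, with medians of 1.04, 0.27 and 0.87. The LGDMEM libraries spread widely in this list, with a summed level of 7178, 13784 and 12271 CPM, against 6601 to 7443 CPM in HGDMEM, and the count against LGDMEM was 6 without LGDMEM 1, where the median was −0.04, and 11 without LGDMEM 3. Between HGDMEM and LGDMEM the median of this list was −0.62, and 1 member, DDIT3, passed the test. The endoplasmic reticulum chaperones fell for 10, 14 and 10 of 25. Their summed level was 19139 CPM in LGDMEM 3, which also stood apart on the second principal component, against 8748 and 10940 CPM in the other LGDMEM libraries, and without LGDMEM 3 the 14 became 9. The ribosomal proteins rose for 23, 5 and 8 of 74, and the 5 became 15 without LGDMEM 3 and 3 without LGDMEM 2. Against EMEM, genes in which HGDMEM itself differed included MATN3, a matrix protein, with 562, 439 and 482 CPM in Plasmax, 83.8, 89.1 and 108 CPM in HGDMEM and 225, 282 and 240.0 CPM in EMEM (Plasmax over HGDMEM 2.40, HGDMEM over EMEM −1.41, adjusted p = 0.00900).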

How the data were processed

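RNA of HepG2 cells from 4 media was sequenced from its 3′ ends (QuantSeq), with 3 libraries a medium. The deposited table holds raw counts per gene symbol, 1 column a library, with no normalization by the authors. The submitters' processing notes name STAR 2.7.5b, featureCounts 1.6.3, cutadapt 1.16, FastQC 0.72 and, without any role stated, limma 3.40.6, with the build hg19 (GRCh37). Of 11546 deposited rows 601 had no symbol and held 2.92% to 3.71% of the counts of the 12 libraries, and they were left out. In the remaining 10945 genes every gene reached 2.51 CPM in at least 3 libraries, so low genes had already been left out of the table, which limits what can be said of weakly expressed genes. Whether the counting used strand, and how it treated reads that match several genes, is not given in the sources used here, so genes with near-identical copies or antisense partners may share reads. Among the symbols, 17 looked like dates and 5 stood on 2 rows, and none of these is named.

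Counts of all 12 libraries were scaled by TMM and fitted together with edgeR 4.0.16 (R 4.3.3) and its quasi-likelihood test, with no block. The edgeR filter on low counts removed 0 genes. Adjusted p-values are Benjamini-Hochberg values over all 10945 genes, with a threshold of 0.05, and the SE of a log2 fold change is its size divided by the square root of the F statistic. CPM were computed on the scaled library sizes. A gene with no read in a medium was given a bound, against 3 counts over the 3 libraries, that covers counting error only. The script was tested on simulated data. Alternatives were other scalings, other filters, DESeq2 1.42.0, limma voom 3.58.1, a threshold of 0.01, the 2 media alone, the replicate number as a block, and each library left out, and, chosen after seeing the data, list counts against LGDMEM with each of its libraries left out. Same-numbered Plasmax and HGDMEM libraries did not deviate together (r = −0.0179, −0.0365 and 0.0298 over 10945 genes), so the numbers were not taken as pairs there. Those of HGDMEM with LGDMEM or EMEM did so weakly, with r over 0.1 for number 1 alone over all genes, and were not taken as pairs either. No pair of libraries of a medium differed by as little as sampling noise.

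The members, gene lists and tests were chosen with earlier results of these data known, so no list is independent support for its direction. Genes were named by a rule: the 12 largest rises and 12 largest falls averaging 10 CPM or more and apart in all libraries, up to 6 changed members of each list, up to 3 in its minority direction and up to 3 members with the highest CPM that did not pass, and a short set of known genes, from which the text takes a part. Some genes that the rule names are not reported here. Genes outside the rule are said in the text to be chosen for a motif match or for having no read in one medium. Lists are described by counts and medians, with no set test. Promoter windows (250 bases before to 50 after a start, 300 in all) are from RefSeq's GRCh38.p14 tables, matched by symbol, while the counts were made on GRCh37, and motifs were searched on both strands.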

Additional observations from a re-analysis of the deposited data

How the results depend on the processing

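Between Plasmax and HGDMEM the count of called genes stayed between 2256 and 3199 under all alternatives at the same threshold, against 2947, and an adjusted p of 0.01 left 1711, with 811 higher and 900 lower. Leaving out 1 library gave 2256 to 2434 in all, 1054 to 1134 higher and 1195 to 1300 lower, and of the genes called without HGDMEM 3, the lowest count, 2189 of 2256 were among the 2947. Other scalings moved the median of all genes by at most 0.02 and put 45.03% to 48.6% of the calls on the higher side. At 0.01 Plasmax differed from LGDMEM in 1254 genes and from EMEM in 1290. Without 1 library these were 1666 to 2265 and 1693 to 2109.

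HGDMEM against LGDMEM gave 7 calls, but 55 with DESeq2, 4 with limma voom, 2 in a fit to those media alone, 15 with the replicate block and 4 to 118 without 1 library. HGDMEM against EMEM gave 18 calls, but 68 with DESeq2, 2 at 0.01, 43 in a fit to those media alone and 1 to 7 without 1 library. The cause was not tested.

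With the replicate number as a block, 3045 genes were called between Plasmax and HGDMEM, 2873 of them among the 2947. Over all genes, same-numbered libraries of these 2 media correlated best with each other for number 3 and not for 1 and 2. Over the 4366 highest genes Plasmax 3 correlated best with HGDMEM 2 (r = 0.0671), against 0.00739 with HGDMEM 3. HGDMEM libraries correlated best with their own number in LGDMEM (r = 0.112, 0.0693 and 0.0687 over all genes, 0.246, 0.165 and 0.210 over the 4366 highest) and in EMEM (0.128, 0.0669 and 0.0480, and 0.186, 0.110 and 0.124). The deviations are from means of 3 libraries, so the 3 values of a set are not independent. Whether these media share a replicate effect, which the labels do not state, was not tested. In an alternative chosen after seeing the data, LGDMEM 3, at −51.8 on the second principal component, was left out of the shared spread, which gave 3168 calls.

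The naming rule favours large fold changes, so the shares of named genes that follow do not stand for all genes. Over all genes 26.9% were called, and 2181 to 2315 of the 2947 calls were kept with 1 library left out. Of 200 genes named by the rule, 163 were called, and 155 kept their call in every alternative that tested them, 17 for 150 genes and 16 for ARRDC4, CHAC1, EREG, G0S2 and GSTA2. The other 8 were ATF5, GPX1, LYZ, NR0B2, PDGFRB, SLC2A3, TRIAP1 and TXNRD3, each lost without at least 1 library. Of the 37 not called, 9 passed in at least 1 alternative: ID1 in 6, IGFBP1 in 5, DDIT3, GPC3 and MLXIPL in a fit to the 2 media alone, PKLR and SLC40A1 without Plasmax 3, GAPDH without HGDMEM 2 and HMOX1 without HGDMEM 1. SLC2A3 missed the threshold with limma voom as well (adjusted p = 0.0749). ATF5 missed it in a fit to the 2 media alone (adjusted p = 0.0630). PDGFRB missed it with upper-quartile scaling (adjusted p = 0.0501), limma voom (0.153), the 2 media alone (0.0775) and the block (0.0644). Reversals of sign were confined to named genes that had not passed. DARS stood at −0.00876 by library size alone, UQCRB at 0.00322 with upper-quartile scaling, and with limma voom G6PC at 0.76 and SLC7A5 at −0.00845. The log2 fold change changed sign without at least 1 library, over the ranges given, for APOB (−0.037 to 0.15), DARS (−0.12 to 0.12), DUSP6 (−0.044 to 0.30), FGG (−0.0083 to 0.13), KARS (−0.15 to 0.036), NPC1 (−0.00081 to 0.28), PCK1 (−0.61 to 0.19), PMVK (−0.38 to 0.00038), SCAP (−0.21 to 0.30), SLC30A1 (−0.035 to 0.25), SLC7A5 (−0.42 to 0.39) and UQCRB (−0.022 to 0.022).

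Calls were fewer among weak genes. Of genes under 5 CPM 11.0% were called, against 50.7% of those from 300 to 1000 CPM.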

Other observations

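Several gene groups not described above are given here as values. Purine and pyrimidine synthesis genes had few calls, with 1 of 21 up, 2 down (0 without Plasmax 1, HGDMEM 1 or HGDMEM 3) and a median of 0.04 on the log2 scale. Haem and iron-sulphur cluster genes also had few, with 1 of 32 up and 5 down and a median of −0.08. Glycogen genes fell for 4 of 16 members and rose for 0. Genes of the pentose phosphate, polyol and hexosamine branches fell for 6 of 17 and rose for 1. Interferon-induced and antigen presentation genes fell for 3 of 16 (1 without Plasmax 2 or HGDMEM 3) and rose for 1. Over all genes the shares were 14.1% lower and 12.8% higher.

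Some levels differed widely within a medium. IGFBP1 in HGDMEM spanned 121 to 587 CPM, with the highest value in HGDMEM 3, and without that library the gene passed the test (adjusted p = 0.0194).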
